A study of Mus musculus with 24 samples.

Results

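The 10 genes described here encode proteins of the Bcl2 family, which decides whether mitochondria release the factors that start apoptosis: Bcl2, Bcl2l1, Mcl1, Bax, Bak1, Bid, Bad, Bcl2l11, Bbc3 and Pmaip1. They were taken by name, as the probe sets whose RefSeq accession maps to one of these mouse symbols. All 10 had a probe set, with 13 of the 26180 probe sets in the deposited data. The members make up 10 of the 14351 genes tested. Liver RNA had been hybridized to 24 Affymetrix 3' expression arrays, 3 in each of 8 groups. Adult mice, 12 to 14 months old, and young mice, 4 to 5 weeks old, had undergone a sham operation or 30, 60 or 90 min of partial hepatic ischemia, which stops blood flow to some of the liver lobes. The median and left lobes were taken. The titles add "/0" to each ischemia time without saying what it stands for. Strain and sex are not given in the sources used here, and the labels name no allele or drug.

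Bcl2 family proteins meet at the outer membrane of the mitochondrion. The anti-apoptotic members (Bcl2, Bcl-xL from Bcl2l1, and Mcl-1) hold the effectors Bax and Bak in check, and the BH3-only members (Bid, Bad, Bim from Bcl2l11, Puma from Bbc3 and Noxa from Pmaip1) either occupy the anti-apoptotic proteins or activate the effectors. Once Bax or Bak is active it permeabilises the membrane, cytochrome c leaves, and caspases are activated. In mouse liver, loss of Mcl-1 or of Bcl-xL from hepatocytes leads to spontaneous apoptosis, and cleavage of Bid carries the death signal from Fas to the mitochondria. Much of this control acts on the proteins, which the arrays do not measure.

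Each deposited value is a linear ratio in which 1 stands for the average sham array of that age; the 3 sham ratios averaged 1 for every probe set within 2e-07. Over all probe sets the ratios ran from 0.0255 to 16.9, and array medians were 0.955 to 1.02. Array brightness is not kept, so levels of different genes cannot be ranked, adult and young sham liver cannot be compared, and the presence of hepatocyte markers can be followed only as ratios. With 3 arrays per group, the number of arrays limits the precision. The design text counts 12 mice of each age, as many as there are arrays. In whole liver, fewer cells of a type and less RNA per cell cannot be told apart. The digits that close the title code were 5 on 5 of the 6 sham arrays, 3 on 5 of the 6 arrays at 30 min, 4 on all 6 at 60 min and 2 on 5 of the 6 at 90 min. What they mark is not stated, and they cannot be told apart from the groups.

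The promoters of the members with the most negative and the most positive single change from sham, both in adults, are shown, to give the sequence around the start sites of Mcl1 and Bbc3. They are RefSeq windows on GRCm38.p6, each 300 bases long, with 250 bases before the start site and 50 after it, both on the plus strand: chr3:95658471-95658770 for Mcl1 and chr7:16309333-16309632 for Bbc3, the first of its 3 windows. Capitals mark the 1 match to TGACG, the core of the cyclic AMP response element, read here from the other strand.
Mcl1: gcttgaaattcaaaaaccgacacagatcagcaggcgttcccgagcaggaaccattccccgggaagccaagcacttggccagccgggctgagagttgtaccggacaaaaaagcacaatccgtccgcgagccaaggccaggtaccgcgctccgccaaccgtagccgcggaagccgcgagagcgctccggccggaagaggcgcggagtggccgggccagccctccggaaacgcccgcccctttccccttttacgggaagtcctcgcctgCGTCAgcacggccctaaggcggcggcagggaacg
Bbc3: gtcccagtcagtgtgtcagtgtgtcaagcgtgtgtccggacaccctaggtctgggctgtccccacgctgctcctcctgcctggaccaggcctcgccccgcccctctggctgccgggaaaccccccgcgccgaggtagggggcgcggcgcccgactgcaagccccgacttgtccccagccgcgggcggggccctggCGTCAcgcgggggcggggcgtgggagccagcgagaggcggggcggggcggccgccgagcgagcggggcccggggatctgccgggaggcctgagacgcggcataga
The match begins at base 17 after the Mcl1 start site and at base -55 relative to that of Bbc3. Pmaip1 was left out of the search, and the windows of the other 9 of the 10 members, 15 in all, were used. They were searched on both strands for TGACG, for ACGTG, a form of the core of the hypoxia response element, and for TATAAA, the TATA box. TGACG was present in 3 of the 15 windows, 1 each of Bcl2, Mcl1 and Bbc3, and in 20.8% of all 32851 RefSeq promoter windows. ACGTG was present in 2, the Bax window and the third Bbc3 window, and in 19.6% of all windows. TATAAA was in 0 of the 15 and in 13.6% of all windows. ACGTG and TGACG can share bases, but no member window held both. These matches describe letters and not binding sites.

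Of the 10 members, Mcl1 alone passed the test at any single ischemia time, being lower after 60 min in adults; no member rose. The threshold was an adjusted p under 0.05 in limma, with adjustment over all 14351 genes. In adults, 0 of 10 members passed at 30 min, where 0% of all genes passed; 1 of 10 passed at 60 min, where 11.9% did; and 0 of 10 passed at 90 min, where 7.45% did. In young mice 0 of 10 passed at 30, 60 and 90 min, against 0.0557%, 0.0279% and 0.181% of all genes. At an unadjusted p under 0.05 there were 2 members at 30 min in adults (Mcl1 and Bbc3), 1 at 60 min and 1 at 90 min (Mcl1 each time), against 10.4%, 33.3% and 28.6% of all genes. In young mice there were 0 at each time.

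The sizes of the members' changes were close to those of an average gene. The median absolute log2 change over the 10 members was 0.15, 0.16 and 0.15 in adults at 30, 60 and 90 min, and over all genes it was 0.12, 0.18 and 0.17. In young mice it was 0.15, 0.11 and 0.09 over the members and 0.10, 0.11 and 0.09 over all genes. The median signed change of the members lay between -0.10 and -0.03 in the 6 comparisons with sham, and that of all genes between -0.05 and -0.02. Members with no overlap between the 3 arrays after ischemia and the 3 after sham numbered 1, 1 and 2 in adults at 30, 60 and 90 min, against 11.5%, 37.0% and 39.1% of all genes. In young mice they numbered 2, 1 and 2, against 14.8%, 13.3% and 13.9%. In adults at 60 and 90 min the members' share was below that of all genes, and elsewhere it was close to it.

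**Figure D1:**
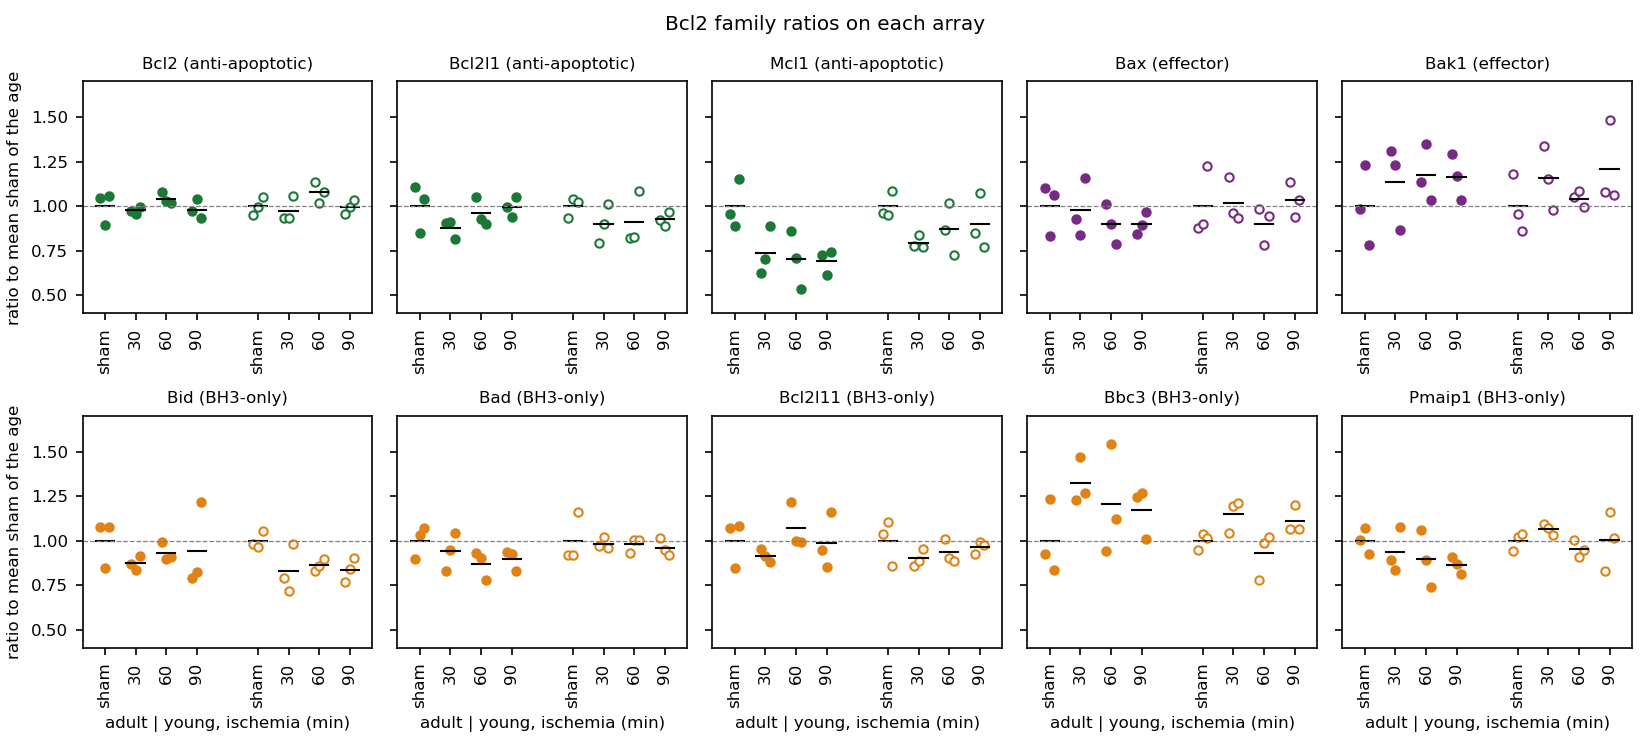
Ratio of each Bcl2 family member on each of the 24 arrays, as a linear ratio to the mean sham array of the same age, with adult mice (filled) left of young mice (open) and groups in order of ischemia time in min. Short bars are group means of 3 arrays; the 9 adult ischemia arrays of Mcl1 lie between 0.534 and 0.889, below the adult sham arrays. For each other member the 9 ischemia arrays of an age overlapped the sham arrays of that age.

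Mcl1, which encodes a short-lived anti-apoptotic protein, had its lowest ratios in adult liver after ischemia. In adults its ratios were 0.957, 0.890 and 1.15 after sham, 0.628, 0.704 and 0.889 after 30 min, 0.862, 0.712 and 0.534 after 60 min, and 0.726, 0.615 and 0.744 after 90 min. All 9 ischemia arrays lay below all 3 sham arrays, although the highest, at 30 min, was within 0.01 of the lowest sham array. That full separation downwards was seen for 3.05% of all genes in adults. Mcl1 fell at 60 min by 0.53 ± 0.17 on the log2 scale (SE, 95% interval -0.87 to -0.18, adjusted p = 0.0449), which is 0.694 times the sham level. At 30 min the change was -0.44 ± 0.17 (adjusted p = 0.461), and at 90 min it was -0.52 ± 0.17 (adjusted p = 0.0590). The ischemia times did not separate from each other: 60 min minus 30 min was -0.09 (interval -0.43 to 0.26) and 90 min minus 60 min was 0.01 (interval -0.34 to 0.35). In the joint test of the 3 times 0 of 10 members passed in adults, where 0.516% of all genes did and Mcl1 had an adjusted p of 0.122, and 0 of 10 in young mice, where 0.0906% did.

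Averaged over the 3 ischemia times, a comparison added after the single times had been seen, Mcl1 fell in adults by 0.50 ± 0.14 on the log2 scale (adjusted p = 0.0335). It was the only one of the 10 members to pass there, against 10.7% of all genes. Over both ages together it fell by 0.37 ± 0.10 (adjusted p = 0.0197), again as 1 of 10, against 14.9% of all genes. In young mice the mean change was -0.24 ± 0.14 (adjusted p = 0.569), with 0 of 10 members and 0.404% of all genes passing.

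The Mcl1 call at 60 min in adults was close to the threshold. Leaving out 1 array ended it in 5 of 6 cases: the log2 change was -0.55 (adjusted p = 0.0814) without sham replicate 1, -0.61 (0.0561) without sham replicate 2, -0.42 (0.163) without sham replicate 3, -0.55 (0.0828) without 60 min replicate 2 and -0.34 (0.232) without 60 min replicate 3. Without 60 min replicate 1 it was -0.69 (adjusted p = 0.0255). Quantile normalization of the arrays gave -0.27 (adjusted p = 0.527). Between arrays that share the opening digits of the title code, which the labels do not explain, the 60 min change of Mcl1 was -0.15, -0.32 and -1.11, and with this code as a block the adjusted p was 0.0523. The adult mean over the 3 times lost its call without sham replicate 1 (adjusted p = 0.0866), sham replicate 3 (0.185), 30 min replicates 1 (0.0600) and 2 (0.0563) and 60 min replicate 3 (0.0517). The mean over both ages lost it without sham replicate 3 of the adults (adjusted p = 0.0741) or of the young mice (0.0777). With quantile normalization the mean change of Mcl1 was -0.30 in adults (adjusted p = 0.378) and -0.25 over both ages (adjusted p = 0.155).

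In young mice the Mcl1 ratios were 0.962, 0.951 and 1.09 after sham, 0.776, 0.842 and 0.769 after 30 min, 0.865, 1.02 and 0.728 after 60 min, and 0.849, 1.08 and 0.772 after 90 min. The 3 arrays at 30 min lay below the sham arrays, and at 60 and 90 min the groups overlapped. The log2 changes were -0.33 ± 0.17 (adjusted p = 0.615), -0.21 ± 0.17 (0.650) and -0.17 ± 0.17 (0.872). The adult response minus the young one was -0.11 at 30 min (interval -0.60 to 0.38), -0.32 at 60 min (interval -0.81 to 0.17) and -0.36 at 90 min (interval -0.85 to 0.13), with adjusted p of 1, 0.730 and 0.529. A difference between the ages was therefore not detectable for Mcl1, and the intervals also take in differences as large as the adult change itself.

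Markers of Kupffer cells, which are liver macrophages, and of hepatocytes were lower on many of the same arrays. The mean log2 ratio of the 11 Kupffer markers measured, Clec4f, Vsig4, Cd5l and Csf1r among them, was -0.24, -0.80 and -1.06 on the 3 adult arrays at 60 min, against -0.39, -0.48 and 0.48 on the adult sham arrays. The array with the lowest Mcl1 ratio at 60 min, 0.534, had the lowest Kupffer value of its group. The sham array with the highest Mcl1 ratio, 1.15, had the highest. The lowest Mcl1 ratio and the lowest Kupffer value also shared an array at 30 min in both ages. They did not at 90 min in adults or at 60 and 90 min in young mice. At 90 min the Kupffer mean was -1.68, -1.05 and -1.20, lower than at 60 min, whereas Mcl1 was not lower. Of the 11 markers 1 fell at 60 min and 10 fell at 90 min, where 9.78% and 6.28% of all genes fell. In the adult mean over the 3 times 7 fell, against 8.58% of all genes. Counts of these markers with 1 array left out are not given here. The mean of the 9 hepatocyte markers measured, such as Alb, Ttr and Apoa1, was -0.13, -0.43 and -0.65 at 60 min. After sham it was 0.04, -0.10 and 0.03. Of the 9, 0 passed at 60 min and 1 fell at 90 min, but all 9 were below 0 at 60 min. At an unadjusted p under 0.05 in limma there were 8 at 60 min and 3 at 90 min, each below 0. Of the 11 Kupffer markers there were 6 and 10, also each below 0. Among all genes 33.3% and 28.6% passed in either direction. The lowest Mcl1 ratio and the lowest hepatocyte value shared an array at 30 and 60 min in adults. They also did at 30 and 90 min in young mice, but not at 90 min in adults or 60 min in young mice. Of the adult sham arrays, the one with the highest Mcl1 ratio did not have the highest hepatocyte value. The part of the Kupffer and hepatocyte markers in the Mcl1 result was not tested.

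**Figure D2:**
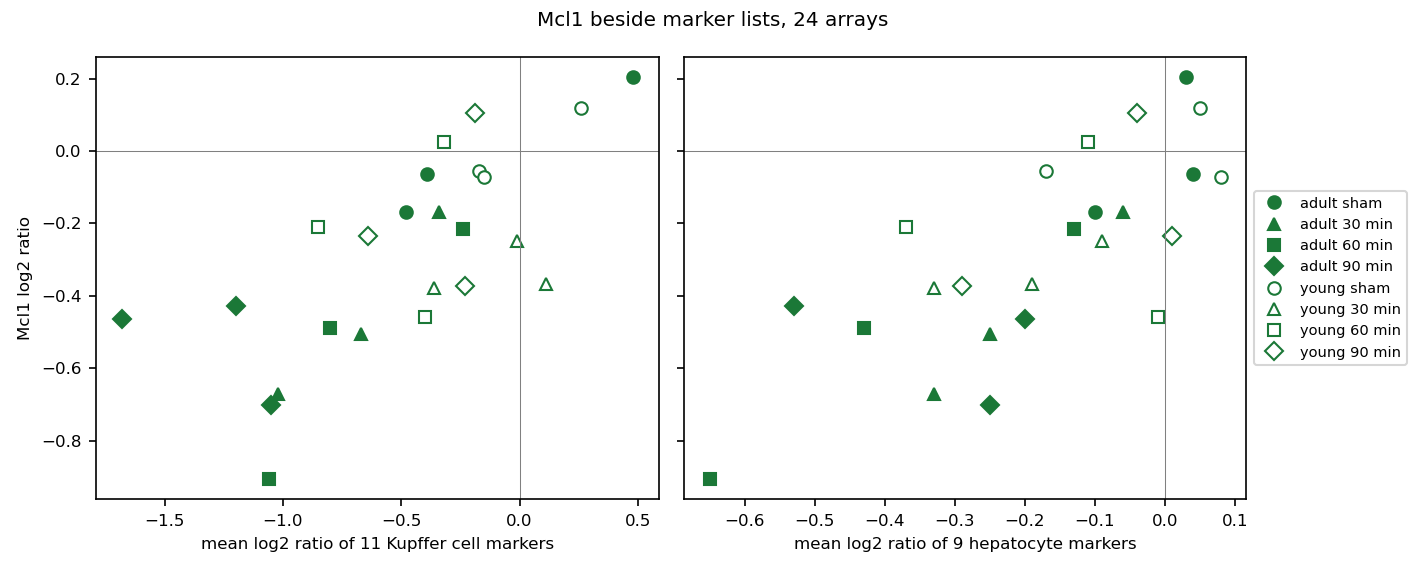
Log2 ratio of Mcl1 on each of the 24 arrays against the mean log2 ratio of 11 Kupffer cell markers (left) and of 9 hepatocyte markers (right), with adult arrays filled, young arrays open and marker shapes for sham, 30, 60 and 90 min. The adult arrays at 60 min run from a Kupffer mean of -0.24 to -1.06 as Mcl1 runs from 0.862 to 0.534 as a linear ratio; the adult arrays at 90 min lie farther left, at -1.05 to -1.68, at Mcl1 ratios of 0.615 to 0.744.

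Bcl2, the founding member of the family, was the steadiest of the 10. Its ratios ran from 0.897 to 1.14 over the 24 arrays, and its SD within groups was 0.08 on the log2 scale, against a median of 0.15 over all genes; only 4.61% of genes had a lower one. Its changes from sham in adults were -0.03, 0.06 and -0.02 at 30, 60 and 90 min, and in young mice -0.04, 0.11 and -0.00, each with an SE of 0.08. At 60 min in adults the 95% interval of -0.10 to 0.23 leaves room for only small changes of this probe set. A second Bcl2 probe set, which differed from the first by up to 0.40 on a single array, gave 0.02, 0.19 and 0.08 in adults and -0.09, 0.15 and 0.09 in young mice, each ± 0.16, and did not pass either.

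Bcl2l1, which encodes Bcl-xL, did not pass at any time. In adults its ratios were 0.906, 0.911 and 0.815 after 30 min, against 1.11, 0.851 and 1.04 after sham, a change of -0.18 ± 0.12 on the log2 scale (adjusted p = 0.549). At 60 and 90 min in adults the changes were -0.05 and 0.00. In young mice they were -0.15, -0.15 and -0.11 at the 3 times. The sham arrays overlapped the ischemia arrays in each of the 6 comparisons.

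Bax and Bak1, the effectors, did not pass in any comparison. Bax, which moves from the cytosol to the mitochondria when activated, changed by -0.04, -0.15 and -0.14 in adults and by 0.04, -0.14 and 0.06 in young mice at 30, 60 and 90 min, each ± 0.15. One young sham array, at 1.22, was the highest of all 24 for this gene. Bak1, which sits in the outer membrane, had ratios of 1.14, 1.35 and 1.03 at 60 min in adults, against 0.984, 1.23 and 0.785 after sham. Its estimates were above 0 throughout, at 0.19, 0.25 and 0.24 in adults and 0.21, 0.07 and 0.27 in young mice, each ± 0.18. Averaged over both ages and all times, Bak1 was 0.20 ± 0.10 above sham (adjusted p = 0.170). Its SD within groups, 0.24, was the widest of the 10 members.

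Bbc3, which encodes the p53-induced protein Puma, had the most positive changes of the family in adults. In adults its ratios were 1.23, 1.47 and 1.27 after 30 min, against 0.927, 1.24 and 0.837 after sham. The groups overlapped, because sham replicate 2 stood above 30 min replicate 1. The change was 0.42 ± 0.16 on the log2 scale (interval 0.09 to 0.75, unadjusted p = 0.0152, adjusted p = 0.461). At 60 min the adult arrays were at 0.945, 1.54 and 1.12, and at 90 min at 1.24, 1.27 and 1.01, with changes of 0.26 ± 0.16 (adjusted p = 0.259) and 0.25 ± 0.16 (adjusted p = 0.305). Over the 3 times the adult mean was 0.31 ± 0.13 (adjusted p = 0.105). That mean passed without adult sham replicate 2 (0.47, adjusted p = 0.0475) and without adult 60 min replicate 1 (0.36, adjusted p = 0.0484). With estimated array weights, where replicate 3 of the adult 30 min group had the lowest weight of the 24 (0.256), both Bbc3 (0.51, adjusted p = 0.0190) and Mcl1 (-0.48, adjusted p = 0.0189) passed at 30 min in adults.

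In young mice the Bbc3 arrays lay above all sham arrays at 30 min (1.05, 1.20 and 1.21, against 0.948, 1.04 and 1.01) and at 90 min (1.07, 1.20 and 1.06), but not at 60 min (0.782, 0.989 and 1.02). The changes were 0.20, -0.11 and 0.15, each ± 0.16, and the step from 30 to 60 min was -0.31 ± 0.16 (adjusted p = 0.996). The adult response of Bbc3 minus the young one was 0.22, 0.37 and 0.09 at the 3 times, with adjusted p of 1, 0.705 and 0.860.

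Bid, the member that caspase-8 cleaves, was below the mean sham ratio of 1 on all 9 young ischemia arrays and on 8 of 9 adult ones. How many of all genes had such counts is not given here. Bcl2l11 was below 1 on 8 of 9 young and 7 of 9 adult arrays, and Mcl1 on 7 and 9. Bak1 and Bbc3 were each below 1 on 2 young arrays and 1 adult array. The 9 young ischemia arrays of Bid overlapped the young sham arrays. In young mice the Bid ratios were 0.980, 0.963 and 1.06 after sham, 0.791, 0.720 and 0.979 after 30 min, 0.833, 0.860 and 0.897 after 60 min and 0.769, 0.843 and 0.904 after 90 min. At 60 and 90 min the young groups did not overlap. The changes were -0.28 ± 0.14 (adjusted p = 0.600), -0.21 ± 0.14 (0.582) and -0.26 ± 0.14 (0.619), and their mean was -0.25 ± 0.11 (adjusted p = 0.415). In adults they were -0.19, -0.09 and -0.10, with 90 min replicate 3 at 1.22. Over both ages Bid was at -0.19 ± 0.08 (adjusted p = 0.0994). It passed without that adult array (-0.22, adjusted p = 0.0299) and with array weights (-0.21, adjusted p = 0.0358).

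Pmaip1, which encodes Noxa, a partner of Mcl-1, had ratios of 0.909, 0.869 and 0.814 at 90 min in adults, against 1.00, 1.07 and 0.927 after sham. The groups did not overlap, and the change was -0.21 ± 0.12 (adjusted p = 0.266). At 30 and 60 min in adults it was -0.10 and -0.17, and in young mice 0.09, -0.07 and -0.01. Bad, whose protein is held by 14-3-3 proteins when phosphorylated, had 0.934, 0.901 and 0.778 at 60 min in adults, against 0.898, 1.03 and 1.07 after sham, a change of -0.20 ± 0.10 (adjusted p = 0.189). Its young changes were within 0.05 of 0. Bcl2l11, which encodes Bim, changed by -0.12, 0.10 and -0.02 in adults and by -0.14, -0.09 and -0.04 in young mice, each ± 0.12. Its 3 probe sets differed by no more than 0.03 on any array, so they do not count as separate measurements.

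**Figure D3:**
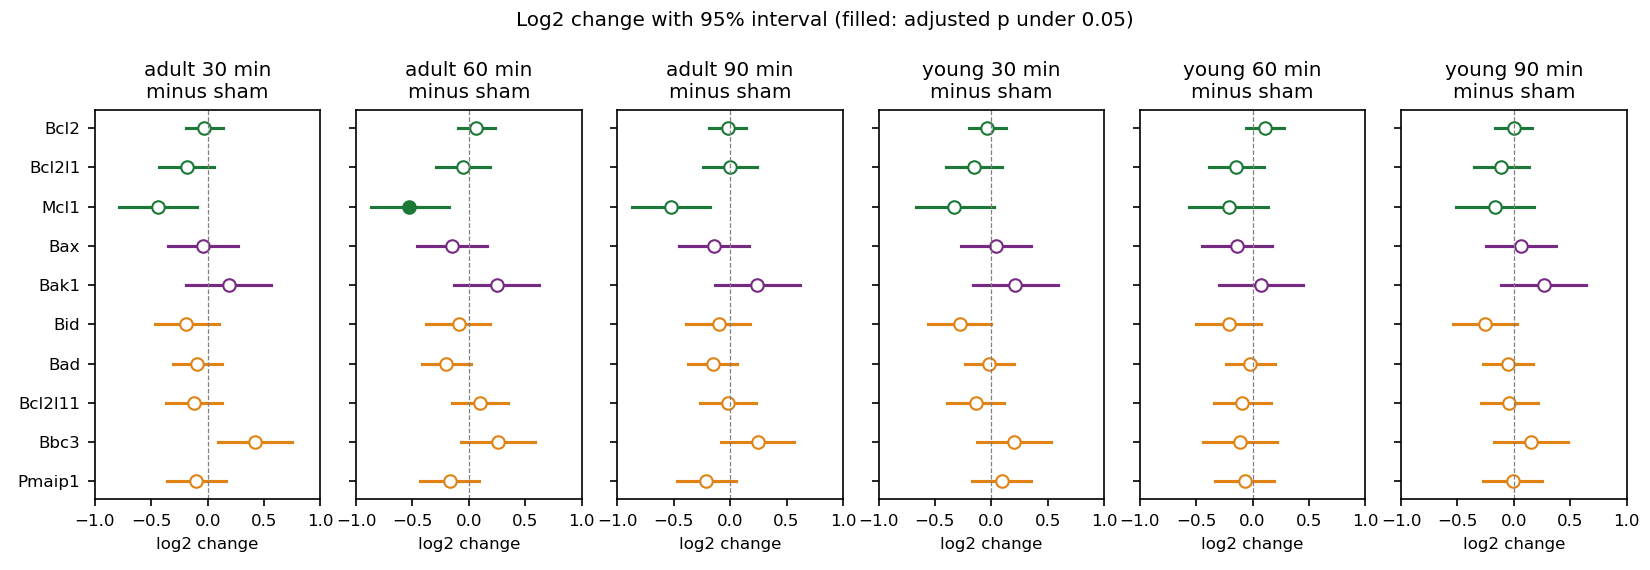
Log2 change from sham of each Bcl2 family member (rows; green anti-apoptotic, purple effector, orange BH3-only) in adult (left 3 panels) and young mice (right 3 panels) at 30, 60 and 90 min, with 95% intervals from limma and filled points for an adjusted p under 0.05. The filled point is Mcl1 at 60 min in adults, at -0.53 with an interval of -0.87 to -0.18; the intervals of Mcl1 and Bbc3 at 30 min and of Mcl1 at 90 min in adults also leave out 0 but did not pass after adjustment over all genes.

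The adult and young responses of the family could not be told apart. Adult and young arrays shared no opening digits of the title code, so age cannot be separated from what that code marks. In young mice these digits were also spread unevenly over the groups, and some ischemia arrays had no sham array with the same digits. The adult minus young difference passed for 0 of 10 members at 30, 60 and 90 min, as for 0% of all genes at each time. At an unadjusted p under 0.05 in limma there were also 0 members, against 2.10%, 6.81% and 11.2% of all genes. The differences of the 10 members reached 0.22, 0.37 and 0.36 in size at the 3 times. For the mean over the 3 times the difference was widest for Mcl1, at -0.26 (interval -0.66 to 0.14), and 0 of 10 members and 0% of all genes passed. Successive ischemia times did not separate either: 0 of 10 members passed between 30 and 60 min or between 60 and 90 min in either age, and 0 had an unadjusted p under 0.05, while 0% of all genes passed.

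Among the members, log2 ratios over the 24 arrays ran together most for Mcl1 and Bad (r = 0.66), for Bcl2l1 and Bid (r = 0.64) and for Bid and Bcl2l11 (r = 0.61), and ran opposite most for Bak1 and Bid (r = -0.56) and for Mcl1 and Bbc3 (r = -0.49). These points share arrays and groups, so they are given as a description. Over the same 24 arrays, the 3 genes most like Mcl1 were Arfrp1 and Cul3 (r = 0.91 each) and Brd8 (r = 0.90). Those most like Bad were Vps53 and Serpina10 (r = 0.90 each) and Coa3 (r = 0.89). Those most like Bbc3 were Nmnat3 (r = 0.79), Fibcd1 (r = 0.74) and Gfod1 (r = 0.71).

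Around the family, 67 of 75 listed genes of the cell death pathway were measured. Of the 67, 0 rose in any of the 6 comparisons with sham in limma. In adults 9 fell at 60 min, which is 13.4% of the list against 9.78% of all genes, and 4 fell at 90 min, 5.97% against 6.28%. At 30 min in adults, and at each time in young mice, 0 of the 67 passed. At an unadjusted p under 0.05 there were 4, 23 and 25 in adults at 30, 60 and 90 min and 7, 10 and 11 in young mice, against 10.4%, 33.3% and 28.6% of all genes in adults and 8.36%, 10.4% and 9.0% in young mice. The adult counts of falls rest on single arrays. At 60 min, 0 of the 67 fell without adult sham replicate 1 or 3 or 60 min replicate 2 or 3, 2 fell without sham replicate 2 and 12 without 60 min replicate 1. At 90 min, 6 fell without adult sham replicate 2 and 0 without any other array left out. After quantile normalization 0 of the 67 fell at either time.

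For the mean over the 3 times, which was added after the single times had been seen, 3 of the 67 genes rose in 1 or more comparisons: Cflar, Jun and Btrc, named after their values were seen. In young mice Cflar alone rose, which is 1.49% of the list against 0.111% of all genes rising, and 0 of the 67 fell. In adults 0 of the 67 rose and 7 fell, 10.4% against 8.58% of all genes. Over both ages all of Cflar, Jun and Btrc rose, 4.48% against 2.71%, and 9 of the 67 fell, 13.4% against 12.2%. With 1 array left out the falls in adults numbered 0 (without sham replicate 1 or 3) to 23 (without 30 min replicate 3). Over both ages they numbered 1 (without sham replicate 3 of either age) to 19 (without adult 30 min replicate 3). After quantile normalization 0 fell in adults and 1 over both ages.

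Genes for mitochondrial release and the apoptosome held 4 of the 9 falls at 60 min in adults, among 12 measured, where 9.78% of all genes fell. Their median log2 change was -0.29, against -0.05 over all genes, and 11 of the 12 were below 0, also after centring or quantile normalization. The median was -0.35 for partners and turnover of Bcl2 proteins and -0.34 for the hepatocyte markers. For the remaining cell death lists it lay between -0.16 and 0.02. Dnm1l, which encodes the fission GTPase Drp1, had ratios of 0.549, 0.589 and 0.612 at 60 min, against 0.960, 0.912 and 1.13 after sham, with no overlap. Its log2 change was -0.77 ± 0.18 at 60 min (adjusted p = 0.0294) and -0.67 ± 0.18 at 90 min (adjusted p = 0.0321). Aifm1, the apoptosis-inducing factor of the intermembrane space, had 0.679, 0.647 and 0.556, against 1.04, 0.926 and 1.04 after sham, and fell by 0.68 ± 0.18 (adjusted p = 0.0327). Vdac2, an outer membrane channel that binds Bak, fell by 0.53 ± 0.17 (adjusted p = 0.0449). Ppif, or cyclophilin D, a regulator of the permeability transition pore, fell by 0.48 ± 0.14 (adjusted p = 0.0359). Replicate 3 of the adult 30 min group stood apart for several of these genes, with 1.14 for Dnm1l, 1.15 for Aifm1 and 1.07 for Vdac2, against 0.648 to 0.747 on the other 30 min arrays.

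Among the 10 other Bcl2 family genes measured, Bnip3l, a mitophagy receptor of the outer membrane also called Nix, was the 1 that passed. Its ratios were 0.815, 0.664 and 0.577 at 60 min and 0.707, 0.627 and 0.661 at 90 min in adults, all below the sham values of 1.13, 0.913 and 0.955. It fell by 0.55 ± 0.14 at 60 min (adjusted p = 0.0301) and by 0.58 ± 0.14 at 90 min (adjusted p = 0.0234). In young mice its changes were -0.32, -0.36 and -0.34, each ± 0.14, with adjusted p of 0.512, 0.390 and 0.410, and the adult minus young difference at 90 min was -0.24 ± 0.19 (adjusted p = 0.586).

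Of the 8 caspases and substrates measured, 2 fell at 90 min in adults, where 6.28% of all genes did. Among them was Casp2, an initiator caspase. Its ratios were 0.744, 0.750 and 0.770 at 90 min, against 1.07, 0.856 and 1.07 after sham, with no overlap, and it fell by 0.40 ± 0.11 on the log2 scale (adjusted p = 0.0321). Of the 7 inhibitor of apoptosis genes, Birc2, a ubiquitin ligase, fell by 0.49 ± 0.15 at 60 min in adults (adjusted p = 0.0412). Birc5, the mitotic member survivin, was at 0.50 ± 0.26 and 0.57 ± 0.26 at 30 and 90 min in young mice without passing. Of the 11 partners of Bcl2 proteins and genes of their turnover, Bag1, a cochaperone that binds Bcl-2, fell by 0.62 ± 0.16 (adjusted p = 0.0306) and Dynll2, a dynein light chain that binds the BH3-only protein Bmf, by 0.36 ± 0.11 (adjusted p = 0.0412), both at 60 min in adults.

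In the death receptor pathway, with 10 genes measured, Cradd, an adaptor of caspase-2, fell by 0.46 ± 0.14 at 60 min in adults (adjusted p = 0.0383). Cflar, which encodes c-FLIP, an inhibitor of caspase-8 activation, was above all young sham arrays on all 9 young ischemia arrays. The share of all genes with that separation in young mice is not given here, and Cflar was named after its values were seen. The young Cflar ratios were 1.00, 0.956 and 1.04 after sham, 1.69, 1.19 and 1.81 after 30 min, 1.86, 1.53 and 2.11 after 60 min and 1.81, 1.57 and 1.61 after 90 min. The changes were 0.62 ± 0.16, 0.86 ± 0.16 and 0.74 ± 0.16, with adjusted p of 0.156, 0.0670 and 0.0675, so no single time passed over all genes. Their mean was 0.74 ± 0.13 (adjusted p = 0.0156) and passed, but not without young sham replicate 1 (0.74, adjusted p = 0.0612) or 2 (0.71, adjusted p = 0.138) or with the opening digits of the title code as a block (0.69, adjusted p = 0.0872). Over both ages Cflar was at 0.47 ± 0.09 (adjusted p = 0.00615) and kept its call with each array left out. In adults the mean was 0.21 ± 0.13 (adjusted p = 0.281), and the adult minus young difference of the means was -0.53 ± 0.19 (adjusted p = 0.685). In adults at 60 min the Cflar arrays were at 1.04, 1.14 and 1.05, against 1.00, 0.893 and 1.10 after sham, and the adult minus young difference at that time was -0.75 ± 0.23 (adjusted p = 0.704). Of the 9 upstream regulators of BH3-only genes, 0 passed in limma at any single time. At an unadjusted p under 0.05 there were 1, 2 and 1 in adults at 30, 60 and 90 min and 2, 3 and 1 in young mice, against the shares of all genes given above. Jun, a subunit of AP-1, was at 1.34, 1.37 and 0.87 in adults and at 1.07, 1.08 and 1.53 in young mice, each ± 0.49, with adult ratios as far apart as 1.04 and 4.38 within the 60 min group. Over both ages and all times Jun rose by 1.21 ± 0.28 (adjusted p = 0.0122), but not without sham replicate 3 of the young mice (1.13, adjusted p = 0.0505) or of the adults (1.08, adjusted p = 0.0511), nor after quantile normalization (1.14, adjusted p = 0.0794). Its mean was 1.19 ± 0.40 in adults (adjusted p = 0.0555) and 1.23 ± 0.40 in young mice (adjusted p = 0.205). The adult mean passed without adult sham replicate 2 (1.77, adjusted p = 0.0254). It also passed without 30 min replicate 3 (1.07, adjusted p = 0.0482) or 60 min replicate 3 (1.37, adjusted p = 0.0467). With array weights it passed too (1.08, adjusted p = 0.0365). The young mean passed with arrays of 1 age (1.23, adjusted p = 0.0332). Neither mean passed in the other alternatives. The Jun sham ratios were 0.548, 1.86 and 0.589 in adults and 0.769, 1.46 and 0.768 in young mice. Btrc, a substrate adaptor of a ubiquitin ligase and one of the partner and turnover genes, was at 0.17 ± 0.05 over both ages (adjusted p = 0.0420), and it lost that call in 13 of 24 cases with 1 array left out, with adjusted p up to 0.141. Those 13 arrays were all 3 young sham arrays, replicate 3 of each young ischemia time, adult sham replicates 2 and 3, adult 30 min replicates 1 and 2, adult 60 min replicate 2 and adult 90 min replicates 1 and 2.

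**Figure D4:**
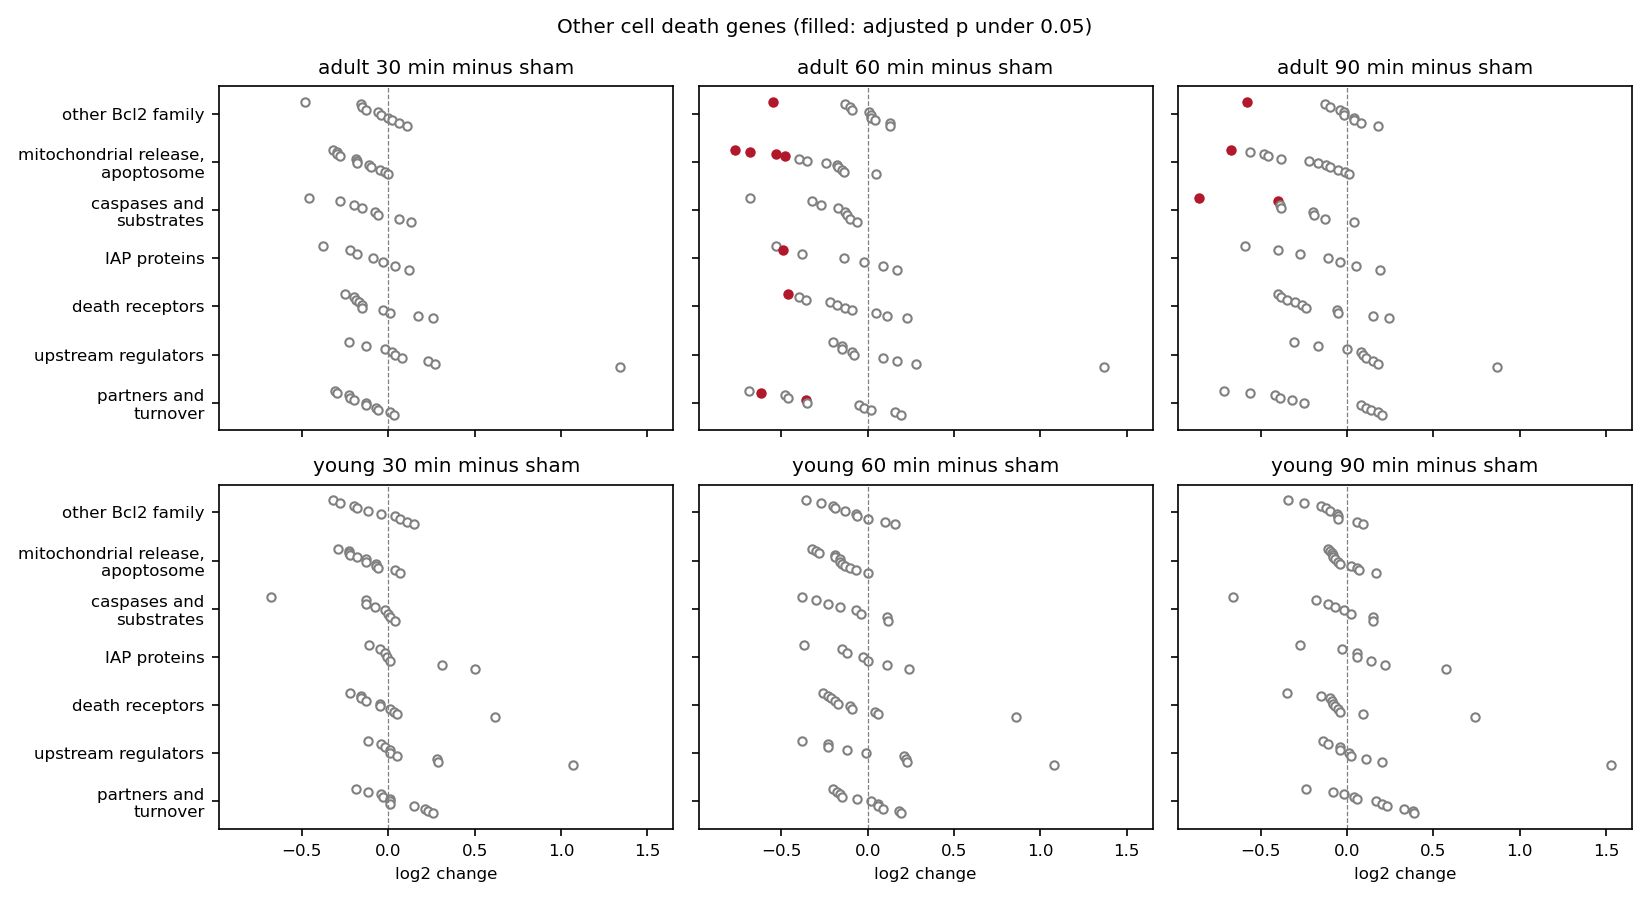
Log2 change from sham of the 67 other cell death genes measured, by list (rows), in adult (upper panels) and young mice (lower panels) at 30, 60 and 90 min, 1 point per gene, filled red for an adjusted p under 0.05. The 13 filled points are all in adults and below 0, 9 at 60 min and 4 at 90 min; the open points farthest to the right are Jun.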

How the data were processed

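Per the labels' protocols, liver RNA was amplified, labelled with biotin and hybridized to Affymetrix 3' arrays. The submitters' processing notes name RMA, without a version. The authors deposited linear ratios, and the files show that each age was scaled to the mean of its own 3 sham arrays. No genome build is named in the sources used here.

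Groups came from the sample titles. Probe sets were named through RefSeq accessions: 15228 had 1 symbol and 10952 none. For the 661 genes with several probe sets, 1 was taken by accession type and then the lowest number, which left 14351 genes. The model, in limma 3.58.1 under R 4.3.3, held a mean of log2 ratios for each of the 8 groups, with 16 residual and 4.53 prior degrees of freedom. Tests are two-sided, with Benjamini-Hochberg adjustment over all genes within a comparison; an error is a standard error unless SD is written. Each ischemia time was set against the sham group of that age, the adult response against the young one, and successive times against each other. The means over the 3 times were added after the data were seen.

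The members, the lists and the marker genes were chosen with earlier results of these data known. Named are all 10 members, up to 4 passing genes of each other cell death list and comparison by size of change, otherwise the one with the largest change, and the 3 genes most correlated with each of 3 members. No probe set stood for Bcl2a1a, Bcl2a1b, Bcl2a1d, Bnip3, Bcl2l15, Vdac3, Dffa or Mlkl. Of the genes chosen for naming, 1 is not reported here.

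The alternatives tried were testing each probe set alone, averaging the probe sets of a gene, median-centred arrays, quantile normalization, a block for the opening digits of the title code, array weights, a robust prior, log2(ratio + 0.1), arrays of 1 age and each array left out in turn. On simulated data for adults at 60 min with 14351 genes, a log2 change of 0.5 was found in 56% of 100 genes and one of 1 in 97% of 100, with 9 unchanged genes called. The simulated noise was normal and independent between genes. Only these 100 genes of each size were changed, whereas 1712 genes passed in the data at 60 min in adults. Adjusted p depends on how many genes change, so the shares found need not hold for the tests made here. Shifts shared by many genes of an array were not simulated, so these figures do not cover them. Deviations from the group mean were correlated between arrays of the same age and different groups. With the same opening digits of the title code, the median r was 0.05 in adults (18 pairs, -0.38 to 0.37). In young mice it was 0.05 (11 pairs, -0.29 to 0.42). With different digits the median r was -0.02 in each age. The code was not taken to pair the arrays, but these medians do not show whether single genes follow it.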

Additional observations from a re-analysis of the deposited data

How the results depend on the processing

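No result reversed its sign where it was called. Of the member values under the alternatives, 2211 kept their side of the threshold, 20 lost a call and 9 gained one; of the other cell death genes named, 1205 kept it, 111 lost a call and 31 gained one. The count of members passing in adults at 60 min, 1, became 0 with every probe set tested on its own (Mcl1 adjusted p = 0.0525), median-centred arrays (0.0618), quantile normalization (0.527), a block for the opening digits of the title code (0.0523) and arrays of 1 age (0.0779), and lay between 0 and 1 with 1 array left out. It stayed 1 with the mean of probe sets, array weights, a robust prior and log2(ratio + 0.1), where the Mcl1 adjusted p was 0.0297 to 0.0457. Array weights gave 2 members in adults at 30 min, 1 at 90 min, 2 for the 3 adult times tested together, 2 for the adult mean and 2 for both ages. The adult mean over the 3 times, 1 otherwise, gave 0 after quantile normalization and with arrays of 1 age, and 0 to 2 with 1 array left out. The mean over both ages gave 0 after quantile normalization, 2 with the title code as a block and 0 to 2 with 1 array left out. The cause of these shifts was not tested. The labels give no replicate numbers, and the block for the opening digits of the title code, given above, is the only paired fit made. Counts over all genes moved more: 1712 in adults at 60 min became 0 to 2919 under other settings and 1 to 2177 with 1 array left out, 1069 at 90 min became 3 to 3017 and 7 to 806, and 0 at 30 min became 0 to 2340 and 0 to 89. In young mice 8, 4 and 26 became 6 to 307, 2 to 31 and 4 to 872, and the age difference at 90 min, 0, became 0 to 1383. The means over the 3 times, 1535 in adults, 58 in young mice and 2133 over both, became 0 to 4185, 13 to 612 and 120 to 3598, and their age difference, 0, became 0 to 619. The joint tests, 74 in adults and 13 in young mice, became 0 to 2908 and 5 to 490. With 3 arrays a group and no brightness, signal over background could not be judged.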

Other observations

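Markers of other liver cell types were followed beside the family. Of 9 stellate cell markers, 2 fell at 90 min in adults, where 6.28% of all genes fell. At 90 min in young mice 4 fell, where 0.181% of all genes passed in either direction. The mean log2 ratio of the stellate markers was -0.40, -0.08 and -0.28 on the adult arrays at 90 min, against -0.01, 0.07 and -0.08 on the adult sham arrays. It was -0.81, -0.79 and -0.53 on the young arrays at 90 min, against -0.06, -0.09 and 0.12 on the young sham arrays. Of 10 endothelial markers, 1 fell at 90 min in adults, and 1 each at 60 and 90 min in young mice. At 60 min in young mice 0.0279% of all genes passed in either direction. For 11 T and NK cell, 5 B cell and 9 neutrophil markers, 0 passed in limma in the 6 comparisons with sham. At an unadjusted p under 0.05 in limma there were 7, 6 and 5 of these 25 in adults at 30, 60 and 90 min. Among all genes there were 10.4%, 33.3% and 28.6%. In young mice there were 2, 4 and 1, against 8.36%, 10.4% and 9.0% of all genes. All of these markers were above 0 except 3 of the 5 at 90 min in adults, which were neutrophil markers. Of the 7 at 30 min in adults, 5 were T and NK cell markers and 2 were B cell markers. For the mean over the 3 times 1 of the 11 T and NK cell markers rose in adults and 2 rose over both ages. In adults 10.7% of all genes passed in either direction, and over both ages 2.71% rose. The part of these markers in the Bcl2 family values was not tested, and these counts were not recomputed under other settings.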
